A study of Rattus norvegicus with 4 samples.

Results

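The baseline transcriptome of the newborn rat hippocampus was described from the vehicle libraries of a study of prenatal bisphenol A (BPA). A gene was taken when its row carried a numeric gene ID and was listed in both vehicle files, which gave 13171 genes of the 13984 gene-ID rows that the series lists in any of its 4 files. The pups were Wistar rats, for which the labels give no modified allele, and were taken on postnatal day 1. Their dams received only the vehicle (absolute ethanol diluted in corn oil, without BPA) into the stomach each day from gestational day 1 to birth, as the labels and methods state, while another passage of the study puts the start a day earlier. The other groups of the series, exposed to BPA, enter only as an alternative mean. A library was made from 3 pooled hippocampi of male pups and another from 3 pooled hippocampi of female pups. Values are given in the order male library, female library, and the level of a gene is their mean. The unit was read as FPKM, fragments scaled to gene length in kilobases and to library size, which is inferred from the values. Values in this unit can be set side by side between genes, except where a row holds only part of its gene.

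Each library is 1 pool, so no spread between animals can be computed, and sex cannot be told apart from library. Xist, the RNA that silences an X chromosome in females (listed as LOC100911498), was at 0.01 and 113 FPKM, and the Y-linked genes Eif2s3y and Ddx3y (listed as Ddx3) were listed in the male file only, at 43.1 and 11.7 FPKM. These values match the sexes in the labels. A mean of both libraries describes neither for Xist, nor for Ttr, the transthyretin of the choroid plexus, which stood at 256 and 3.96 FPKM. The low values of the files fall on steps of whole fragments, which put the libraries at 8880000 and 8660000 fragments. At that depth a gene of median length (2439 bases) at 1 FPKM rests on 19.6 and 19.4 fragments, a counting SD of 22.6% and 22.7%, and at 100 FPKM on 1956 and 1937 fragments, a counting SD of 2.26% and 2.27%. These figures cover counting error only.

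The hippocampus of the newborn rat is a tissue under construction. Its pyramidal neurons have been born and are extending axons and dendrites, the dentate gyrus is still adding granule neurons, Cajal-Retzius cells remain in the marginal zone, and astrocytes and oligodendrocytes are only beginning to mature. In bulk RNA of such a tissue, fewer cells of a type and less RNA per cell cannot be told apart.

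Levels ran from the lowest listed value of 0.01 FPKM to 7200 FPKM, with a median of 9.55 FPKM (9.39 in the male and 9.66 in the female library). Of the 13171 genes, 12671 had a mean of at least 0.1 FPKM, 10929 (83.0%) of at least 1, 6428 of at least 10, 665 of at least 100 and 18 of at least 1000 FPKM. A small number of genes held much of the signal. The 10 highest held 6.80% of the summed FPKM, the 100 highest 22.6% (22.9% in the male and 22.4% in the female library) and the 1000 highest 56.6%. The curve of level against rank shows this fall and where a few marker genes lie on it.

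**Figure D1:**
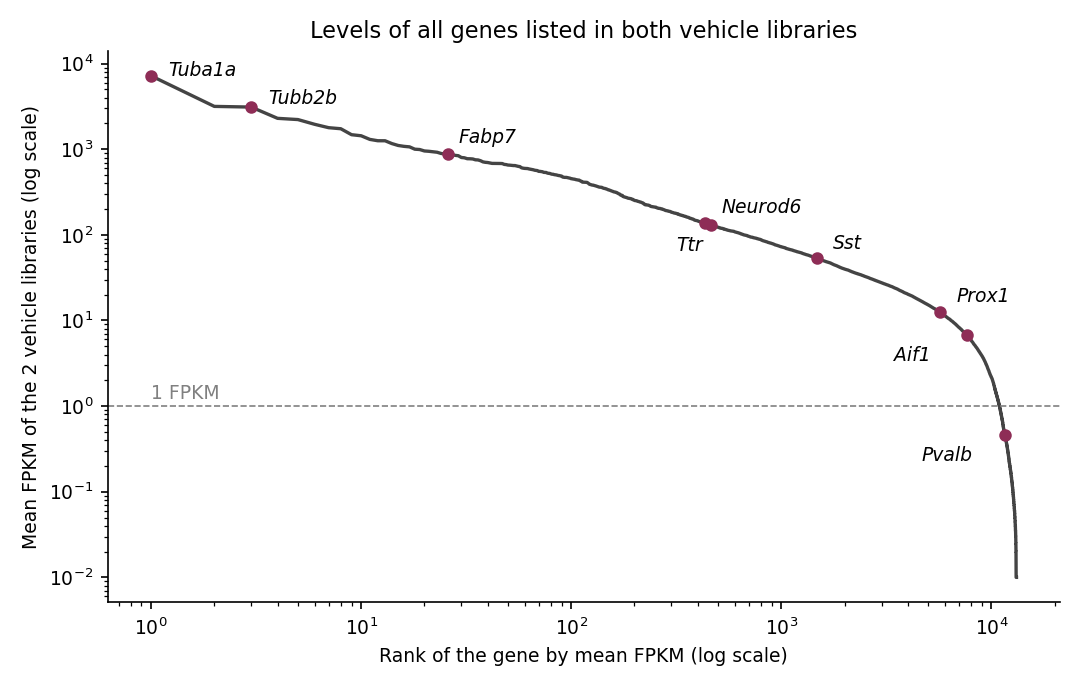
Mean FPKM of the 2 vehicle libraries (vertical axis, log scale) against the rank of each of the 13171 genes (horizontal axis, log scale), with the dashed line at 1 FPKM and 9 named genes as points. The curve falls from 7200 FPKM at Tuba1a to below 1 FPKM after rank 10929, with Fabp7 at rank 26, Neurod6 at rank 432 and Pvalb at 0.46 FPKM.

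Cytoskeletal genes led the 25 highest genes, while over all genes the neuronal cytoskeleton list of 31 held 8.39% of the summed FPKM and the cytosolic ribosomal proteins 9.99%. A place in this list does not make a gene particular to neurons, since it also holds the cytoplasmic actins Actg1 and Actb. Of the 25 highest genes, 12 belong to this cytoskeletal list and 7 encode cytosolic ribosomal proteins, and the 12 alone held 6.69% of the summed FPKM. Tuba1a, the alpha-tubulin of postmitotic neurons, ranked first in both libraries at 7463 and 6938 FPKM (7200 ± 372, SD, n = 2), and alone held 1.86% of the summed FPKM. The next cytoskeletal gene was the beta-tubulin Tubb2b at 3406 and 2809 FPKM. The levels of Tuba1a in the pair of libraries did not overlap those of any other gene.

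Other tubulins were lower. Tubb5 was at 1594 and 1363 FPKM, the neuron-specific Tubb3 at 1364 and 1149.8 FPKM and Tubb2a at 1094 and 909.6 FPKM. Near-identical copies such as Tubb2a and Tubb2b, Tuba1a and Tuba1b (708 and 659 FPKM), or Actb and Actg1 share reads, which the authors' counting had to divide, so the split within each family is uncertain while their joint place at the top is not touched by it. The cytoplasmic actins Actg1 and Actb stood at 2348 and 2243 FPKM and at 2158 and 1755 FPKM. Proteins that hold actin monomers or cut filaments were also among the 25 highest genes. Tmsb10 was at 2269 and 2173 FPKM, Tmsb4x at 1690.2 and 1781 FPKM and the filament-severing cofilin Cfl1 at 996 and 988 FPKM. Stmn1, which destabilises microtubules, was at 1692 and 1879 FPKM, and Marcksl1, a membrane-bound actin regulator, at 1001 and 785 FPKM.

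The remainder of the cytoskeletal list held the growth-associated proteins of axons. Stmn2 was at 817 and 863 FPKM and Gap43, a growth cone protein, at 451 and 454 FPKM. The collapsin response mediators Dpysl3 and Crmp1 were at 696 and 668 FPKM and at 711 and 619 FPKM, and tau (Mapt) at 482 and 455 FPKM. All 31 members were at or above 1 FPKM and 30 of them at or above 10. The exception was Nefh, the heavy neurofilament of mature axons, at 2.86 and 1.89 FPKM. The neurofilament subunits Nefm and Nefl were intermediate, at 54.9 and 42.2 FPKM and at 52.2 and 35.6 FPKM. The largest gap between the libraries in this list was that of Basp1, another growth cone protein, at 659 and 326 FPKM, and the other 30 differed by less than 2-fold.

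Translation and energy supply were the other abundant groups. The 85 rows of cytosolic ribosomal proteins had a median of 471 FPKM and gave 46 of the 100 highest genes, against 19 from the cytoskeletal list. Rpl41 led them at 1200.1 and 1311 FPKM, followed by Rps2 at 1345 and 984 FPKM and Rplp0 at 1153 and 1008 FPKM. The elongation factor Eef1a1, which brings aminoacyl-tRNA to the ribosome, was the second gene of all at 3104 and 3226 FPKM. Nuclear-encoded subunits of oxidative phosphorylation were lower but even. All 76 were above 10 FPKM, with a median of 102 FPKM, a lowest value of 36.7 FPKM and Atp5b, the beta subunit of ATP synthase, highest at 595 and 595 FPKM. The 38 proteasome subunits had a median of 71.2 FPKM, and the lowest of them were the immunoproteasome and thymus-type subunits Psmb9 (1.47 and 2.44), Psmb8 (0.44 and 0.34) and Psmb11 (0.13 and 0.18).

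The other 6 of the 25 highest genes were Eef1a1, the polyubiquitin gene Ubb (1453 and 1419), the cyclophilin Ppia (1282 and 1324), the imprinted neuronal gene Nnat (1189 and 1025), the chaperone Hspa8 (1039.7 and 1092) and the calmodulin gene Calm2 (925 and 945). Fabp7, the fatty acid binding protein of radial glia, came next at 884 and 873 FPKM and was the highest gene of any glial list.

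Some gene-ID rows hold only part of their gene. The files also list new gene models, which carry no gene ID and hold 7.95% and 7.94% of the summed FPKM, and some of these have the protein name of a member. Rpl13 was listed at 0.01 FPKM in both libraries while a new model with its name was at 671 and 497 FPKM. Rpl17 at 0.47 and 0.01 FPKM and Rpl22 at 4.97 and 0.01 FPKM likewise had new models summing to 447 and 456 FPKM and to 95.7 and 98.8 FPKM. The 3 new models named for Eef1a1 or a form like it summed to 1967 and 2039 FPKM, and 2 named for Hspa8 to 1085 and 1145 FPKM. A low value of a single row therefore need not be a low value of the gene. Among the 37 listed marker or function genes without a member row, 9 had a new model of the same protein name, among them the axon guidance receptor Plxna1 at 64.0 and 58.1 FPKM, the transcription factor Mef2c at 9.50 and 12.1 FPKM, the dorsal forebrain factor Emx1 at 6.87 and 5.15 FPKM and the progenitor factor Insm1 at 33.1 and 12.2 FPKM. Eomes and Neurog2, which mark intermediate progenitors, had neither.

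Marker lists for 22 cell types, neighbouring regions and other organs were then read against the median of all genes, the 50th percentile of level. Of these, 8 lists had a median above it (7 in the male and 8 in the female library alone). They were pan-neuronal genes at percentile 95.02, neuroblasts and intermediate progenitors at 90.8, astrocytes at 85.04, radial glia at 77.3, glutamatergic hippocampal neurons at 74.8, red blood cells at 68.3, interneurons at 67.8 and meningeal fibroblasts at 51.2. With the new gene models ranked as rows of their own, 13 lists had a median above the 50th percentile. A list's level depends on which genes were put in it, and the lists were not tested against each other. The rank of the neuroblast and intermediate progenitor list rests on 9 of its 12 genes, without Eomes and Neurog2. Of these 9, 6 were at or above 10 FPKM, while Dll1, Dll3 and Neurod4 stood at percentiles 46.2, 22.8 and 18.3. The rank therefore does not show abundant intermediate progenitors. The plot of the marker lists gives every gene found.

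**Figure D2:**
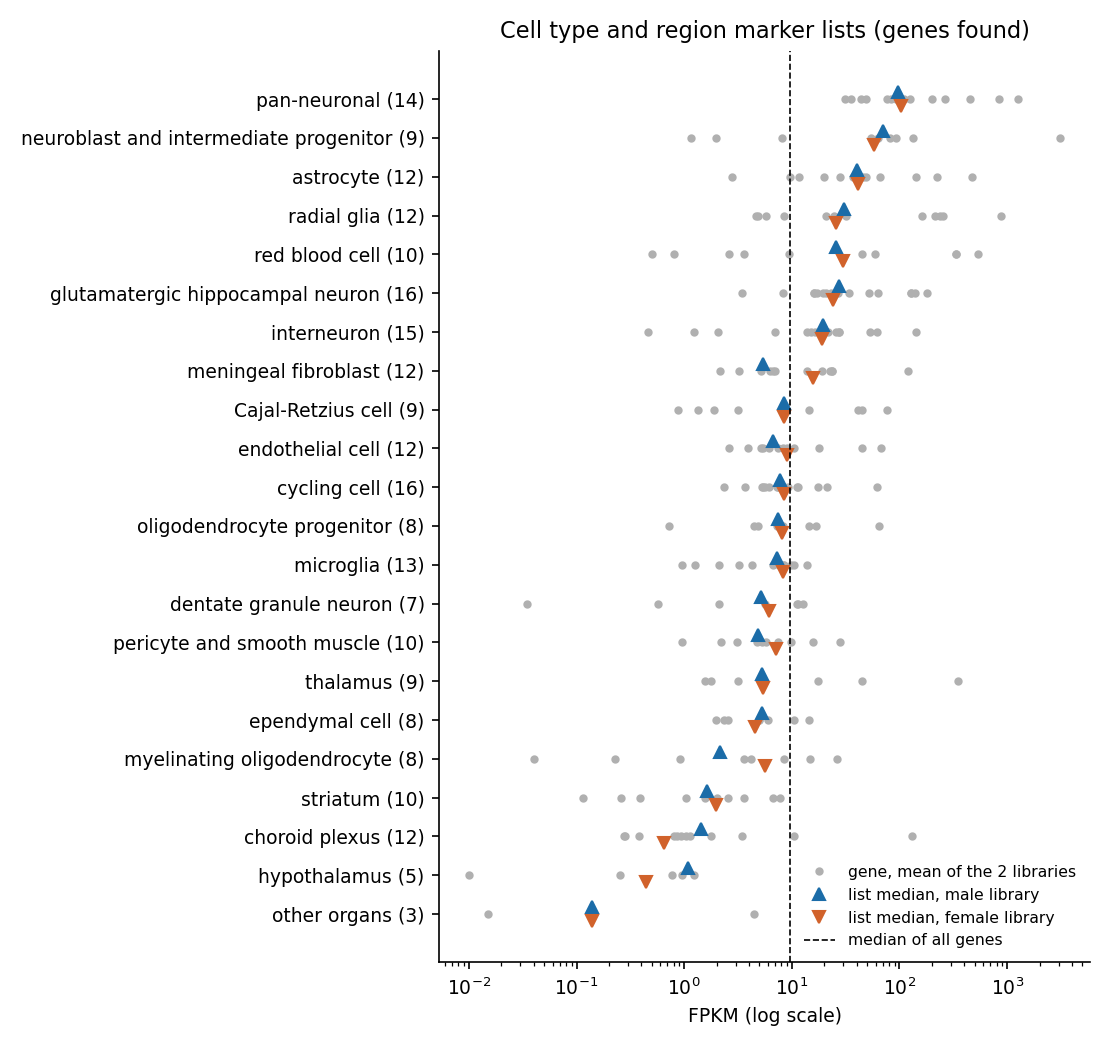
FPKM (log scale) of the genes of 22 marker lists, with the number found in brackets. Grey points are genes (mean of the 2 libraries), upward and downward triangles the list medians in the male and female library, and the dashed line the median of all genes, 9.55 FPKM. The pan-neuronal and neuroblast lists lie to the right of the line, and the pair of triangles is farthest apart for meningeal fibroblasts (5.42 and 15.8 FPKM).

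Neuronal genes were present without exception in their list. All 14 pan-neuronal genes exceeded 10 FPKM, with a median of 102 FPKM. Dcx, a microtubule protein of young migrating neurons, was at 244 and 289 FPKM, the dendritic Map2 at 190.0 and 213 FPKM, and Rbfox3 (NeuN), a splicing factor of mature neurons, at 35.5 and 34.9 FPKM. Of the 16 glutamatergic genes, 14 were at or above 10 FPKM. Neurod6, a factor of pyramidal neurons, stood at 135 and 141 FPKM and Neurod2 at 76.7 and 48.3 FPKM. The vesicular glutamate transporter Slc17a7 was at 138 and 117 FPKM, the CA1 and deep-layer factor Bcl11b at 36.6 and 30.6 FPKM and the hippocampal factor Zbtb20 at 17.6 and 23.6 FPKM. Wfs1, a CA1 marker of later age, was the lowest of the list at 3.46 and 3.47 FPKM.

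Dentate granule genes were lower, with a median of 5.63 FPKM over the 7 found. Prox1, which sets granule cell identity, was at 12.4 and 12.8 FPKM and Calb1, a calcium buffer of granule cells, at 9.55 and 13.47 FPKM, whereas C1ql2 was at 0.76 and 0.39 FPKM and Lct at 0.01 and 0.06 FPKM. Genes of young neurons were high. Sox4 was at 106 and 79.2 FPKM, Sox11 at 70.7 and 38.04 FPKM, Igfbpl1 at 100.2 and 61.7 FPKM and Neurod1, which drives granule neuron differentiation, at 66.6 and 58.6 FPKM. The notch ligands Dll1 (8.43 and 7.77) and Dll3 (2.49 and 1.42) and the proneural factor Neurod4 (1.18 and 1.14) were its lowest genes.

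Cajal-Retzius genes were present. Reln, the secreted protein by which these cells guide layering, was at 75.5 and 76.5 FPKM, Cxcr4, which holds them at the surface, at 40.9 and 41.4 FPKM and Calb2 at 42.2 and 46.9 FPKM, while the transcription factors Tp73 (3.43 and 2.91), Lhx5 (1.77 and 0.93) and Lhx1 (1.14 and 0.61) were below 4 FPKM. Interneurons also use Reln, Calb2 and Cxcr4, so the first-named values belong to no single cell type.

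Of the interneuron list, 14 of 15 genes were at or above 1 FPKM. The GABA-synthesising enzymes Gad1 and Gad2 were at 28.1 and 26.9 FPKM and at 13.9 and 13.99 FPKM, the vesicular transporter Slc32a1 at 31.4 and 20.2 FPKM and Lhx6, a factor of cells from the medial eminence, at 18.98 and 18.99 FPKM. The peptides differed widely in level. Cck was at 176 and 108 FPKM, Npy at 61.7 and 61.9 FPKM and Sst at 58.9 and 47.1 FPKM, but Vip was at 1.62 and 2.51 FPKM and Pvalb, the calcium buffer of fast-spiking cells, at 0.46 and 0.46 FPKM in the 2 libraries, the only gene of the list under 1 FPKM. Cck is also made by pyramidal neurons.

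Glia were represented mostly by radial glial and astrocytic genes. After Fabp7 the radial glial list held Ptn at 233 and 278 FPKM, Vim, an intermediate filament, at 213 and 212 FPKM and the glutamate transporter Slc1a3 at 158 and 168 FPKM. Sox2 was at 36.3 and 27.4 FPKM and Nes at 20.5 and 21 FPKM, while the progenitor factors Pax6 (5.17 and 4.62) and Hes1 (5.68 and 3.61) were the lowest. In the astrocyte list, Apoe was at 523 and 424 FPKM, Sparcl1 at 195 and 252 FPKM and Aldoc at 145 and 139 FPKM. Gfap, the filament of mature astrocytes, stood at 45.1 and 46.1 FPKM, Aqp4, the water channel of their endfeet, at 35.8 and 37.7 FPKM and Gja1, a gap junction protein, at 21.5 and 34.4 FPKM. Apoe is shared with microglia and vessels, and Fabp7 and Slc1a3 with astrocytes.

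Of the oligodendrocyte precursor genes the highest was Olig1, a lineage factor, at 76.9 and 52.5 FPKM. The precursor receptor Pdgfra was at 14.3 and 18.9 FPKM, Olig2 at 15.5 and 13.20 FPKM and Sox10 at 5.01 and 3.85 FPKM. Of the myelin genes, Cnp was at 28.4 and 24.2 FPKM and Mbp at 16.3 and 13.49 FPKM, whereas Mag, an adhesion protein of formed myelin, was at 1.17 and 0.67 FPKM and Opalin at 0.04 and 0.04 FPKM. The myelinating list had 5 of 8 members at or above 1 FPKM and a median of 3.89 FPKM, under the precursor list at 7.81 FPKM.

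Microglial genes were low, with 12 of 13 at or above 1 FPKM and a median of 7.67 FPKM. The complement gene C1qa was at 9.90 and 10.9 FPKM and the growth factor receptor Csf1r at 7.75 and 9.26 FPKM. The markers tied to mature microglia were lower. P2ry12 was at 3.97 and 4.64 FPKM and Tmem119 at 1.39 and 1.15 FPKM.

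Vessels and blood were visible in both libraries. The 12 endothelial genes, led by Cldn5 and Slco1c1, had a median of 7.885 FPKM, with 4 at or above 10. The 10 pericyte and smooth muscle genes had a median of 5.51 FPKM, and both medians were below that of all genes. Cldn5, the tight junction protein of brain endothelium, was at 65.8 and 68.4 FPKM, the thyroid hormone carrier Slco1c1 at 38.5 and 50.3 FPKM and the endothelial cadherin Cdh5 at 8.48 and 9.69 FPKM. The pericyte gene Rgs5 was at 25.1 and 30.4 FPKM, and Acta2, the actin of smooth muscle, was at 0.75 and 8.71 FPKM. Haemoglobin rows were high, Hba1 at 610.3 and 463 FPKM, Hba2 at 368 and 296 FPKM and Hbb at 359 and 312 FPKM. The alpha copies are near identical to each other, as are the beta copies, so the split between copies is uncertain. The erythroid enzyme Alas2 was at 2.42 and 2.84 FPKM and the membrane protein Slc4a1 at 0.48 and 0.52 FPKM.

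The libraries stood apart in meningeal fibroblast genes and in Ttr. The 12 meningeal genes summed to 109 FPKM in the male and 396 FPKM in the female library, and 7 of them differed by more than 1 on the log2 scale of FPKM + 1, a size reached by 0.787% of all genes with a mean of at least 1 FPKM. Ptgds, the prostaglandin D synthase of the leptomeninges, was at 28.9 and 209 FPKM, the collagen gene Col1a2 at 14.4 and 32.6 FPKM, Dcn at 7.17 and 20.8 FPKM and Igf2 at 8.86 and 29.6 FPKM. The 12 choroid plexus genes summed to 281 and 21.9 FPKM, but without Ttr to 24.8 and 18 FPKM. Of the 6 with a mean of at least 1 FPKM Ttr was the only one that differed by more than 1. Among all 11 others 1 did so, Sostdc1 at 1.64 and 0.21 FPKM. Other defining genes of the plexus were low in both, Kcnj13 at 0.56 and 1.72 FPKM, Aqp1 at 1.54 and 0.54 FPKM and Folr1 at 4.75 and 2.18 FPKM. Of the 12 plexus genes 10 were higher in the male library, among them Ttr, and 2 in the female library. Clic6 was at 1.34 and 0.26 FPKM and Kl at 0.49 and 0.07 FPKM. At such levels the log2 scale of FPKM + 1 understates differences. The mean of the libraries places meningeal genes at percentile 51.2, the male library alone at 37.5 and the female library alone at 61.7. The part of dissection in these values was not tested.

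Genes of cycling cells were detected, with a median of 7.83 FPKM, below the median of all genes (9.55 FPKM). All 16 genes of that list were at or above 1 FPKM, a level reached by 83.0% of all genes, and 5 of them at or above 10. Pcna, the replication clamp, was at 61.3 and 62.2 FPKM, Top2a at 11.01 and 11.9 FPKM and Mki67, a nuclear protein of dividing cells, at 5.28 and 6.87 FPKM. Ependymal genes, of the ciliated lining of the ventricle, had a median of 4.92 FPKM, with their factor Foxj1 at 19.7 and 9.31 FPKM.

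Genes of neighbouring regions were read beside those of the labelled tissue. The medians were 0.77 FPKM for the hypothalamic, 1.78 FPKM for the striatal and 5.38 FPKM for the thalamic list, the last of which was close to the dentate granule list (5.63 FPKM), so these lists separate hippocampus from thalamus poorly. Of the hypothalamic list, 5 of 10 genes had a member row and a single one, Nkx2-1 (1.70 and 0.77), had a mean of at least 1 FPKM, while Pomc was at 1.38 and 0.51 FPKM and Avp at 1.09 and 0.44 FPKM. Nkx2-1 is also an interneuron gene. Striatal genes were all under 10 FPKM, with Ppp1r1b highest at 8.50 and 6.98 FPKM and the dopamine receptors Drd2 at 1.89 and 2.15 FPKM and Drd1 at 0.23 and 0.55 FPKM. In the thalamic list, Tcf7l2 was at 1.48 and 1.65 FPKM, Slc18a2 at 1.94 and 1.62 FPKM and Lhx9 at 4.88 and 5.41 FPKM, and the higher Cd24, Calb2 and Zic1 (21.9 and 12.9) are shared with other young neurons or the meninges. Of 12 genes of liver, muscle, pancreas and testis, 3 had a member row, of which Acta1 was highest at 4.45 and 4.40 FPKM. The 8 olfactory receptor rows were all under 1 FPKM. Of 11 vomeronasal receptor rows the only one above 10 FPKM was Vom1r90 at 91.9 and 95.8 FPKM, and the nearest, Vom2r52, was at 2.60 and 4.21 FPKM.

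Of the transcription factors of the developing forebrain, all 26 found were above 1 FPKM and 23 above 10, with a median of 53.3 FPKM, percentile 88.9. Nfix, which controls the timing of hippocampal neuron differentiation, led at 299 and 241 FPKM. Lhx2, required for the hippocampal field, was at 84.6 and 75.2 FPKM and Tcf4 at 76.1 and 75.2 FPKM. Emx2, a patterning factor of the medial cortex, was at 13.1 and 11.4 FPKM and Lef1, a Wnt effector, at 4.90 and 4.58 FPKM.

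The machinery of synaptic release was already abundant. All 20 genes of that list were above 1 FPKM and 19 above 10, with a median of 75.7 FPKM. The SNARE protein Vamp2 was at 211 and 196 FPKM and synaptophysin (Syp), a vesicle membrane protein, at 188 and 178 FPKM. The calcium sensor Syt1 was at 93.2 and 94.3 FPKM, below Syt4 at 178 and 184 FPKM. The large active zone scaffolds Pclo (13.7 and 18.7) and Bsn (16 and 14) were near the bottom of the list, and Vamp1 was lowest at 4.75 and 5.08 FPKM.

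Glutamate receptor subunits differed by class. All 4 AMPA subunits exceeded 10 FPKM. Gria1 was at 97.8 and 102 FPKM, above Gria2, which blocks calcium entry, at 50.3 and 68.8 FPKM, and above Gria4 (19.6 and 24.9) and Gria3 (13.03 and 18.4). The obligatory NMDA subunit Grin1 was at 54.1 and 44.99 FPKM, Grin2b at 20 and 25.2 FPKM and Grin3a at 20.5 and 18.3 FPKM, while Grin2a was at 3.94 and 4.39 FPKM and Grin2c at 0.42 and 0.29 FPKM. Among kainate subunits Grik5 was highest at 78.4 and 55.1 FPKM. Of the 16 GABA-A subunits found, 11 were at or above 1 FPKM. The alpha subunits Gabra5 and Gabra2 were at 57.8 and 58.8 FPKM and at 44.3 and 53.3 FPKM, whereas the extrasynaptic Gabrd was at 0.52 and 0.73 FPKM.

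Axon guidance genes were nearly all expressed, with all 28 at or above 1 FPKM and 21 at or above 10. The semaphorin receptors Nrp2 and Nrp1 were at 86.3 and 85.8 FPKM and at 67.9 and 65.5 FPKM, Epha4 at 67.7 and 69.6 FPKM and Robo1 at 35.97 and 36.02 FPKM. The ligand Efnb3 was the highest of the list at 121 and 114 FPKM and Sema3c stood at 69.1 and 77.1 FPKM, but Slit2 was at 12.2 and 11.9 FPKM, Sema3a at 2.90 and 4.98 FPKM and Ntn1 at 3.41 and 1.51 FPKM. In the neurotrophin list, the receptor Ntrk2 was at 58.8 and 59.2 FPKM and Ntrk3 at 18.8 and 23.4 FPKM. Their ligands Bdnf (1.86 and 1.74) and Ntf3 (3.19 and 7.53) were lower.

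In all, 14 pairs of related genes, in which the first is known to dominate earlier in development than the second, were read within each library. The first gene was higher in both libraries in 9 pairs, the second in 4, and the order differed between libraries in 1. Grin2b exceeded Grin2a 5.08-fold and 5.73-fold and the embryonic sodium channel gene Scn3a exceeded Scn1a 3.19-fold and 3.32-fold. The widest ratio was that of internexin (Ina, 124 and 103 FPKM) to Nefh, 43.3-fold and 54.4-fold. Fabp7 exceeded Aqp4 24.7-fold and 23.1-fold, and Dcx exceeded Rbfox3 6.87-fold and 8.27-fold.

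The exceptions concerned transporters, scaffolds and kinases. Slc12a5 (KCC2, which extrudes chloride) was at 22.02 and 20.6 FPKM and Slc12a2 (NKCC1, which imports it) at 10.6 and 10.7 FPKM, so the later gene was 2.08-fold and 1.93-fold higher. Slc17a7 exceeded Slc17a6 (13.7 and 18.2 FPKM) 10.1-fold and 6.43-fold, and Dlg4 (PSD-95, 147 and 131 FPKM) exceeded Dlg3 (20.2 and 20.5 FPKM) 7.30-fold and 6.41-fold. Camk2a, at 132 and 123 FPKM, was 1.87-fold and 3.22-fold above Sox11. Camk2a was nonetheless below Camk2b (191 and 166 FPKM), the subunit known to come first. Pdgfra was 1.40-fold above Mbp in the female library and below it in the male library. No adult hippocampus was sequenced, so these are orders at 1 age and not changes over time.

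**Figure D3:**
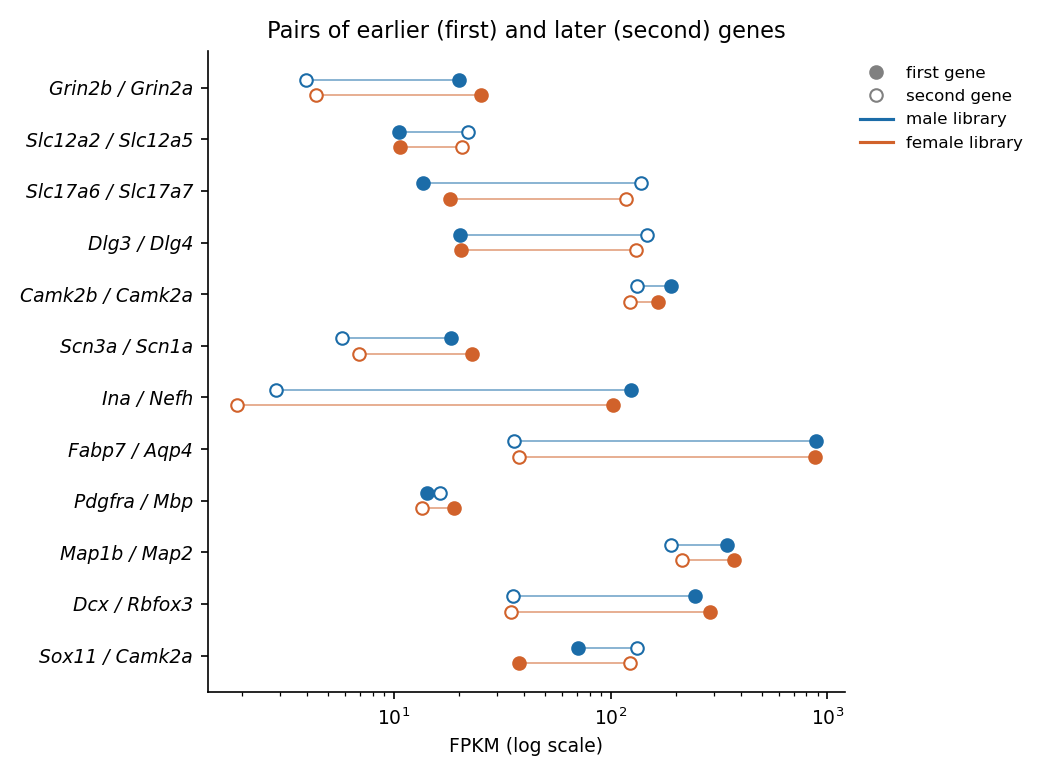
FPKM (log scale) of the first gene (filled) and the second gene (open) of 12 of the 14 developmental pairs, in the male (blue) and female (orange) library. The filled circle lies to the right in both libraries in 7 of these pairs, among them Ina with Nefh (124 and 103 against 2.86 and 1.89 FPKM), and to the left in 4.

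The 2 libraries gave closely similar levels. Over the 10929 genes with a mean of at least 1 FPKM the median absolute log2 difference of FPKM + 1 was 0.15, a 1.11-fold difference, and the 95th percentile was 0.53. Across all 13171 genes Pearson's r of log2(FPKM + 1) was 0.990 and Spearman's rho 0.989, with the points being genes of 2 libraries prepared alike and not independent replicates. The spread narrowed from a median of 0.20 between 1 and 5 FPKM to 0.11 between 100 and 1000 FPKM. Differences over 1 on the log2 scale were found for 86 of the 10929 genes, which is 0.787%, and this share was 1.67% between 1 and 5 FPKM. Neighbours in level whose values differ by less than about 1.1-fold were therefore not separated by the spread between libraries. A wider gap is not thereby separated, since 1.11-fold is only the median and the 95th percentile was 1.44-fold. The spread comes from pools of different sex and is not an error between replicates.

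**Figure D4:**
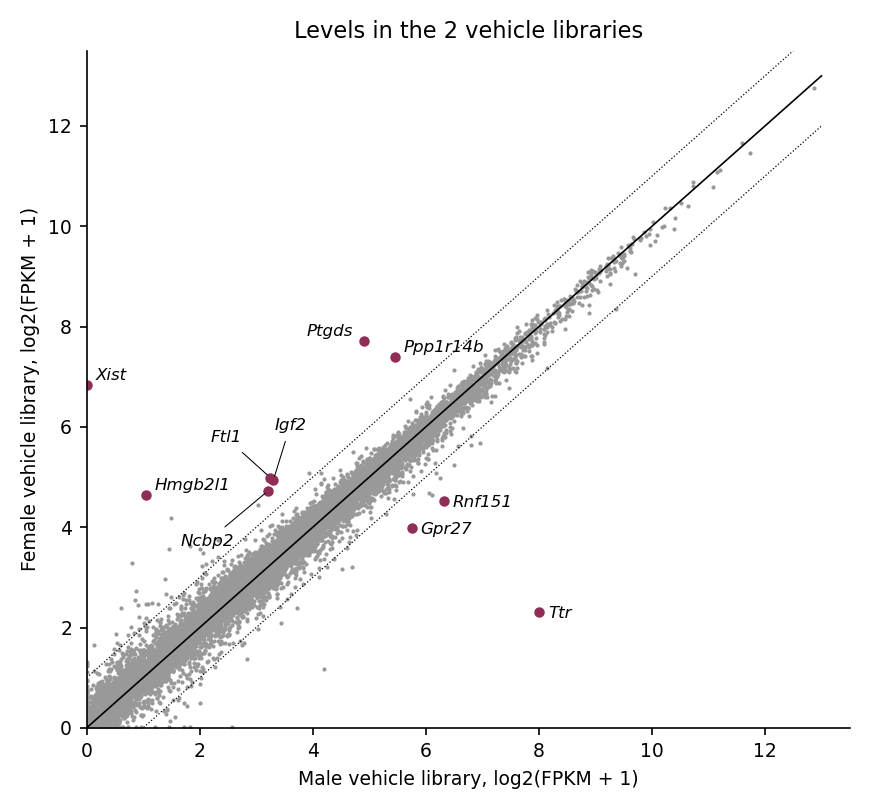
Log2(FPKM + 1) of all 13171 genes in the male (horizontal) and female (vertical) vehicle library, with the line of equality and dotted lines at a difference of 1. Most genes lie between the dotted lines, and the 10 labelled genes, from Xist (0.01 and 113 FPKM) to Ncbp2 (8.28 and 25.5 FPKM), have the widest differences among genes with a mean of at least 10 FPKM.

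Among the 6428 genes with a mean of at least 10 FPKM, 28 differed by more than 1, of which 19 were higher in the male and 9 in the female library. After Xist and Ttr the widest were Hmgb2l1 (1.08 and 23.9), Ptgds, Ppp1r14b (42.98 and 167), Rnf151 (79.2 and 22.01), Gpr27 (52.9 and 14.8), Ftl1 (8.50 and 30.8), Igf2 and Ncbp2 (8.28 and 25.5). Ftl1, the ferritin light chain, is split between rows. A new model of the same name stood at 876 and 729 FPKM, and summed with it the log2 difference of Ftl1 went from -1.74 to 0.22. The mean of these 10 genes describes neither library, and 2 libraries cannot say which difference a second pair of pools would repeat.

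Gene Ontology classes of 15 to 500 members, as annotated in the files, were ranked by the median percentile of their genes. Of the cellular components the highest were the small and large ribosomal subunit (percentiles 99.4 and 99.3), the mitochondrial respiratory chain (93.7), the myelin sheath (90.9) and the proteasome complex (90.1). The myelin sheath class was led by Tuba1a, Eef1a1, Ppia, Gnb1 and Ywhag, none of them particular to myelin. The lowest components were the MHC protein complex (14.9, led by B2m at 40.4 and 48.2 FPKM), the myosin complex (27.3), the extracellular region part (27.8), the contractile fiber (28.4) and the extracellular matrix (30.7).

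Components of the growing neuron lay between. The growth cone class had 56 genes, all at or above 1 FPKM, and a median of 39.8 FPKM (percentile 84.6), with Crmp1, Mapt and the kinesin light chain Klc1 (283 and 253 FPKM) at its head. The synaptic vesicle membrane had 23 genes with a median of 34.4 FPKM (82.0), and the postsynaptic density 108 genes, all at or above 1 FPKM, with a median of 23.8 FPKM (73.5). The dendrite class with 232 genes stood at percentile 66.6 and the synapse class with 104 genes at 64.3. Of 225 component classes 189 had a median above the 50th percentile of all genes, so a percentile somewhat above 50 is the ordinary case for an annotated class.

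By molecular function the highest classes were hydrogen ion transmembrane transport (95.6, led by Atp5b), NADH dehydrogenase (91.2), cation-transporting ATPases (89.9), protein phosphatase regulators (86.6, led by Ppp2r1a at 281 and 256 FPKM) and kinesin binding (85.6, led by Clstn1 at 190.3 and 169 FPKM). The lowest were a pair of classes of oxygen-inserting oxidoreductases (9.19 and 12.4), which hold many cytochrome P450 genes, G-protein coupled peptide receptors (20.4), lyases (20.9) and neuropeptide receptors (21.6). Of the leading genes of the lowest class, Cyp51, an enzyme of cholesterol synthesis, was at 68.4 and 68.6 FPKM and Cyp46a1, which clears cholesterol from neurons, at 13.9 and 12.6 FPKM.

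Among biological processes, viral gene expression (99.3) and pancreas development (99.04) came first, and both were led by the same ribosomal protein genes, Rps29, Rplp1, Rpsa, Rps7 and Rpl32. ATP biosynthesis (97.8), de novo protein folding (94.4, led by tubulins) and proton transport against a gradient (93.4) followed. The 5 lowest concerned immune functions, from antigen processing and presentation (14.1) and humoral immunity (14.4) to leukocyte chemotaxis (14.97), cytokine biosynthesis (15.07) and NF-kappaB import (16.2). Neuron migration stood at percentile 81.2 with 34 genes, axon guidance at 73.6 with 52 genes, long-term synaptic potentiation at 65.3 with 18 genes and myelination at 58.0 with 15 genes.

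The KEGG orthology labels of the files gave 27 classes of that size, whose genes often did not carry the name of the class. The class named for type I collagen was led by Rn45s, the ribosomal RNA precursor (263 and 265 FPKM), RGD1560108, Dgcr6 and Prr7, and the class named for neurofilament heavy chain by Rtn4 and Hp1bp3, whereas the gene of that name, Nefh, was at 2.86 and 1.89 FPKM. The lowest classes did hold genes of their name in part, among them claudins (14.999, led by Cldn5) and class I histocompatibility genes (15.1). The olfactory receptor class (18.996) was again led by Rn45s.

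Promoters were read from the RefSeq promoter table of the rat assembly GRCr8, which had an entry for 10671 of the 13171 genes (81.0%). Each entry runs from 250 bases before to 50 bases after the annotated start. The matched genes were put in 10 equal groups by level, from group 1 (lowest) to group 10 (highest). The median promoter held 7 CpG dinucleotides in group 1, 11 in group 2, 20 in group 4 and 24 in group 10, so that most of the gap lay among the lowest groups. With genes of at least 1 FPKM alone the gap between group 10 and group 1 was 9 CpG in place of 17. The GC content was 54.3% in group 1 and 62.0% in group 10. Gene length followed another course, with medians of 1970 bases in group 1, 2863 in group 5 and 1826 in group 10, and 1059 bases in the 100 highest genes with an entry.

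Motifs were searched on both strands of the whole window. The GC box bound by Sp1 (GGGCGG) was present in 36.4% of promoters in group 1 and 70.5% in group 10, beside 60% of these 10671 genes and 33.1% of all 33469 promoters of the table. The TATA box (TATAAA) was present in 13.20% of promoters in group 1, 4.6% in group 5 and 8.4% in group 10, and in 14 of the 100 highest genes with an entry, beside 7.3% of these genes and 14.2% of the table. The CCAAT box was present in 34.5% in group 1 and 38.9% in group 10, beside 37.5% of the table. These features did not all move together, since the GC box was most frequent in group 10 and the TATA box least frequent in group 5.

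Of the 76 oxidative phosphorylation genes 66 had an entry. The core of ETS sites (CCGGAA) was present in 42.4% of them and the NRF1 motif (GCGCATGC) in 12.1%, beside 25.6% and 4.6% of the 10671 genes and 15% and 2.47% of the table. The promoters of the 17 synaptic release genes with an entry (of 20) held the GC box in 82.4% and the TATA box in 0 of 17. For the ribosomal, cytoskeletal and forebrain factor lists fewer than 80% of the genes had an entry, so the check is void and no share is given. A match is a run of letters and not a bound site, the motifs can overlap, and the shares were not tested.

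**Figure D5:**
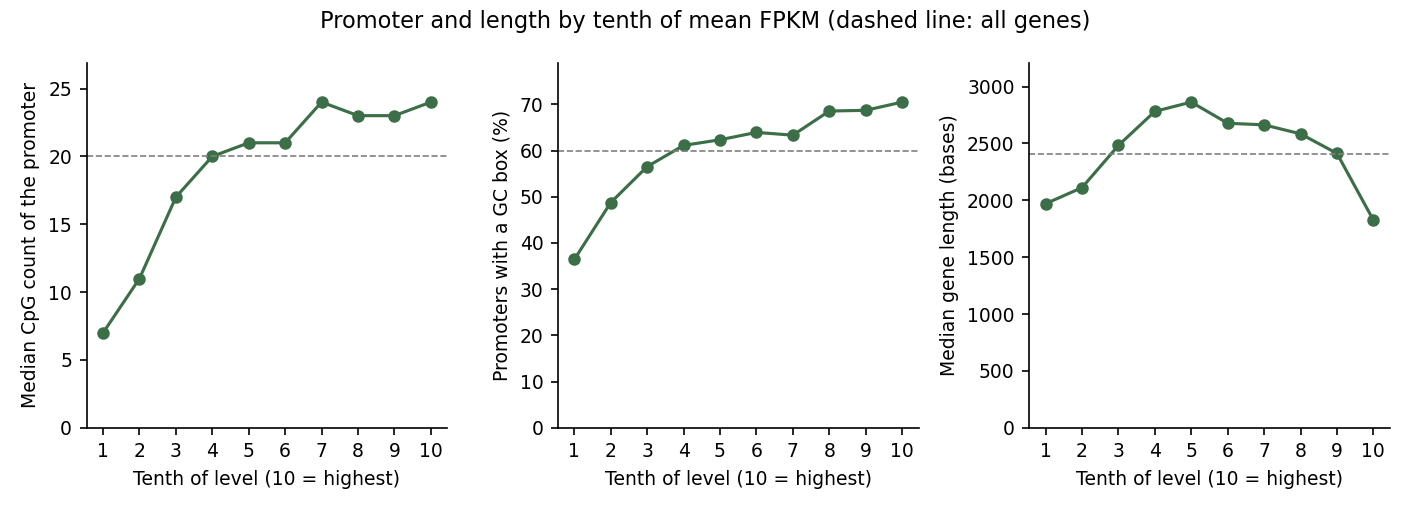
Median CpG count per promoter (left), share of promoters with a GC box in percent (middle) and median gene length in bases (right) for 10 equal groups of the 10671 genes with a promoter entry, ordered by mean FPKM (10 = highest). Dashed lines are the values over all of them. CpG rises from 7 to 24 and the GC box from 36.4% to 70.5%, while length peaks in group 5 at 2863 bases.

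The promoter sequences of 6 of the 27 highest genes are shown because their last 100 bases before the start range from 0 to 15 CpG at high levels. Each runs from 100 bases before to 1 base before the annotated start in the direction of transcription, from RefSeq on GRCr8, with the TATA, CCAAT and GC boxes on either strand in capitals. Tuba1a lies at chr7:131995820-131995919 (minus strand), Tubb2b at chr17:30952986-30953085 (plus strand), Tmsb10 at chr4:106569141-106569240 (minus strand), Tubb3 at chr19:68365587-68365686 (plus strand), Gapdh at chr4:159652468-159652567 (minus strand) and Fabp7 at chr20:37669506-37669605 (plus strand).
Tuba1a: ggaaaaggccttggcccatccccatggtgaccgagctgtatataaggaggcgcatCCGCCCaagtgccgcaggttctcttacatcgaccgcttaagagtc
Tubb2b: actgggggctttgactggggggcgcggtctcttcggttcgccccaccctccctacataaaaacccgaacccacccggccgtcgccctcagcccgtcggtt
Tmsb10: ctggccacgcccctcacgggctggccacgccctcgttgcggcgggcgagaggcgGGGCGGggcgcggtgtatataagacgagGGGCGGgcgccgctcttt
Tubb3: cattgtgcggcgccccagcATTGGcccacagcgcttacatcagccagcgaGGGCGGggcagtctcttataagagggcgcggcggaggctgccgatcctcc
Gapdh: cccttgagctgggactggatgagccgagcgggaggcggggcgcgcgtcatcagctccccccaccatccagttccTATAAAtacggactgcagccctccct
Fabp7: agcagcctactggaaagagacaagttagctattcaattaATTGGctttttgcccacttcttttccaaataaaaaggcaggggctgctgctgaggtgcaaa

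Within these 100 bases Tmsb10 had 15 CpG and 75% GC with 2 GC boxes, Tubb2b 10 CpG and 67.0% GC, and Tuba1a 6 CpG and 57.0% GC. Fabp7, of the radial glia, had 0 CpG and 43.0% GC in this stretch (4 CpG over the whole window), yet stood at 884 and 873 FPKM. Gapdh, a glycolytic enzyme, was close at 887 and 845 FPKM. Its stretch held 7 CpG and a TATA box beginning 26 bases before the start. The exact letters of the TATA box were absent from the other 5 windows, which says nothing of related sequences. Tubb3 held both an inverted CCAAT box and a GC box in this stretch, and Fabp7 an inverted CCAAT box.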

How the data were processed

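RNA was extracted from newborn Wistar rat hippocampus with the mirVana kit and sequenced on an Illumina platform, with 1 library per sex and treatment, each of 3 pooled hippocampi from 3 pups of independent litters per the study's methods. The authors deposited 1 table per library. The submitters' processing notes name HISAT 0.1.6, Bowtie2 2.2.5, RSEM and the rn6 build, with no role or order, and no options were found in the labels or methods. The deposited values were read as FPKM, which is inferred from the values, with 2 decimals and a lowest listed value of 0.01 FPKM. A gene absent from a vehicle file was not taken as 0, while the mean of all 4 libraries took a gene absent from a BPA file as 0. The depth was recovered from the steps of the low values: 96.4% of 755 values in the male and 95.6% of 814 in the female library lay within 0.15 fragments of a whole number, against 30% for evenly spread values.

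The mean of both vehicle libraries was taken per gene with Python 3.11.15, numpy 2.4.6, pandas 2.3.3 and matplotlib 3.10.9, and a percentile is the rank of a gene among the 13171 as a percentage, ties averaged. Differences were taken on log2(FPKM + 1), which understates those of low genes. No count model and no test between the libraries was run, since each sex has 1 library. The recovery of depth was tested on simulated data. Named genes were the 25 highest, the genes of the lists and pairs, the leading genes of the 5 highest and 5 lowest classes of a kind, the 10 widest differences and the sex-linked genes. The members and lists were chosen with earlier results of these data known. Gene names were checked against RefSeq (GRCr8), which held 13098 of the genes. Alternatives were single libraries, all 4 libraries, other pseudocounts and thresholds, TPM, full gene length, and new models kept or summed with their gene. Some genes of the lists are not reported here.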

Additional observations from a re-analysis of the deposited data

Results flagged for a closer look

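Signal outside the gene-ID rows was found in the same vehicle files. A total of 2350 new gene models were listed at 1 FPKM or more in both libraries, of 3204 listed in both. The highest had a mean of 1944 FPKM and carried the protein name of an elongation factor 1-alpha form, a family whose copies share reads. Genes listed in a single file were not members. The highest in the male file only was the Y-linked Eif2s3y at 43.05 FPKM, and the highest in the female file only was Zfp36l2, an RNA-binding protein that destabilises transcripts, at 3.58 FPKM.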

How the results depend on the processing

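No value of the report comes from a test, and 2 libraries give no estimate of the spread between animals. No paired analysis was possible because no result comes from a test between groups. The share of summed FPKM held by the 100 highest genes (22.6%) was 23.1% in the mean of all 4 libraries, 22.03% with full gene length, 21.5% with new gene models as rows of their own and 23.0% with new models summed with the gene of the same protein name, and 22.4% to 22.9% in a single library. For the mean of 4 libraries a gene not listed in a BPA file was taken as 0. The median absolute log2 difference between the libraries (0.15) was 0.17 as TPM, 0.17 with new models as rows, 0.17 with a pseudocount of 0.1 and 0.13 with a mean of at least 10 FPKM. The number of marker lists above the 50th percentile (8) was 13 with new models as rows, and 7 to 8 in a single library. The number of genes at or above 1 FPKM was 10865 to 10960 in a single library. Of the 14 pairs, the first gene was higher in 10 by the mean and in 9 to 10 in a single library. Of the 40 classes named by rank, 10 remained with 30 to 500 members, since only 10 of the 40 are that large, and 26 remained when classes were ranked by mean log2 value. The gap in median CpG count between the highest and lowest level groups (17) was 17 to 18 in a single library, 18 with genes of a single promoter entry and 9 with genes of at least 1 FPKM; these settings were chosen after seeing the data. The order of Pdgfra and Mbp turned in the male library alone, with a log2 ratio of -0.19 against 0.49 in the female library, and the difference of Ftl1 turned to 0.22 with its new model summed in. Of 198 percentiles of the marker lists under the alternatives 159 moved by less than the spread between the libraries and 39 by more, and of the 126 ratios of pairs 116 did so.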
